A study of Mus musculus with 21 samples.

Results

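The change from multipotent cells to committed myeloid progenitors was read from 6 of the 21 arrays of the study, the 3 arrays titled GMP (granulocyte-macrophage progenitors) set against the 3 titled KLS (lineage-negative, Kit-positive and Sca1-positive cells). The 3 arrays titled PreGM, the fraction between them, were used to place each change at the first step, from KLS to PreGM, or at the second, from PreGM to GMP. Arrays were chosen by their titles alone. The study covers 7 fractions of C57BL/6 bone marrow with 3 arrays each, labeled with 1 dye and hybridized to probes for genes of the whole mouse genome. All 3 fractions were lineage-negative (B220, CD3, CD4, CD8, CD41, Mac1, Gr1 and Ter119), and the labels write Kit and Sca1 positivity for each of them. PreGM cells were in addition sorted as negative for CD150, CD105 and Fc gamma receptors, and GMP cells as negative for CD150 and positive for Fc gamma receptors. The labels name no genetic change and no treatment, and give neither the age nor the sex of the mice. They do not say whether the 3 samples of a fraction came from separate animals. All p values measure the spread between samples of a fraction alone, pooled over the 7 fractions.

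KLS cells hold the stem cells of the marrow together with multipotent progenitors, which rest on receptors such as Flt3 and Kit and on transcription factors of the HOX, MEIS and GATA families. GMP cells give rise to neutrophils and monocytes, and the Fc gamma receptor gate for GMP also reaches cells on the way to eosinophils, basophils and mast cells. Commitment to these lineages depends on PU.1 (Spi1) and the C/EBP factors, and its first products are the proteases and peroxidase of the primary granules, which are made in the rough endoplasmic reticulum before any mature neutrophil exists. Secondary and tertiary granule proteins come later in the same lineage.

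A level is the log2 intensity of a probe, corrected for background, after subtraction of that array's 75th percentile, so that a level of 0 equals that percentile and a difference of 1 is 2-fold. Between 62.1% and 77.3% of spots were well above background on these 9 arrays. Across probes, arrays of 1 fraction correlated at 0.981 to 0.993, KLS with PreGM at 0.952 to 0.964, PreGM with GMP at 0.952 to 0.963 and KLS with GMP at 0.911 to 0.921 (probes are not independent replicates). Several library facts touch the comparisons. Y-linked transcripts were present on 3 of 3 KLS arrays, 1 of 3 PreGM arrays (replicate 3) and 0 of 3 GMP arrays, and Xist, the transcript of the inactive X chromosome, showed the reverse (0, 2 and 3 arrays). On these 6 arrays the difference between GMP and KLS and that between the sexes of the animals cannot be told apart, and a fit with a block for these transcripts draws on the PreGM and CFUe fractions, which hold both kinds. Some arrays stood apart from their fraction. The number of genes more than 2 on the log2 scale from the median of the fraction was 20, 103 and 22 for KLS replicates 1 to 3, 13, 30 and 109 for PreGM, and 17, 27 and 327 for GMP.

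Macrophage transcripts were present in the KLS libraries. C1qc, a subunit of complement C1q made by tissue macrophages, had levels of 3.49, 2.56 and 2.03 on the KLS arrays, -3.89, -4.47 and -4.24 on the PreGM arrays and -4.06, -3.38 and -3.67 on the GMP arrays. Vcam1, the adhesion molecule of marrow macrophages and stroma, had levels of 4.18, 3.56 and 2.65 on the KLS arrays, -3.76, -4.38 and -2.85 on the PreGM arrays and 2.73, 2.43 and 2.49 on the GMP arrays. The macrophage list of 17 genes tested had 14 lower in GMP than in KLS (12.6% of all genes were), 16 lower in PreGM than in KLS (6.64%) and 5 higher in GMP than in PreGM (4.61%), by the call defined in the next paragraph. Its summed level (log2 of the summed intensity relative to the 75th percentile) ranged from 5.36 to 6.82 in KLS, from 1.15 to 1.43 in PreGM and from 3.25 to 3.47 in GMP. Of the 17 genes, 0 in KLS, 3 in PreGM and 1 in GMP were not well above background on any array. Of the other marker lists, B cell genes had summed levels of 3.05 to 3.54 in KLS and 3.15 to 3.37 in GMP, and those of endothelium and stroma 2.55 to 2.66 in KLS and -0.59 to 0.04 in GMP. A sum follows the brightest genes. By the same call 5 of 9 B cell genes were lower in GMP than in KLS and none higher, with a median of -1.31. Of 5 plasma cell genes 3 were lower and 1 was higher. In RNA from sorted populations fewer cells of a type cannot be told apart from less RNA per cell. Ly6a, which encodes Sca1, had levels of 2.65, 2.38 and 2.70 on the KLS arrays, -0.42, -0.23 and -0.28 on the PreGM arrays and 2.07, 2.09 and 2.13 on the GMP arrays, so its transcript was low in PreGM although the labels write Sca1 positivity for all 3 fractions. Jchain, the joining chain of plasma cell immunoglobulin, was well above background on 3 KLS arrays (1.63, 1.59 and 1.65) and on none of the PreGM or GMP arrays. Their part in the results below was not tested.

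**Figure D1:**
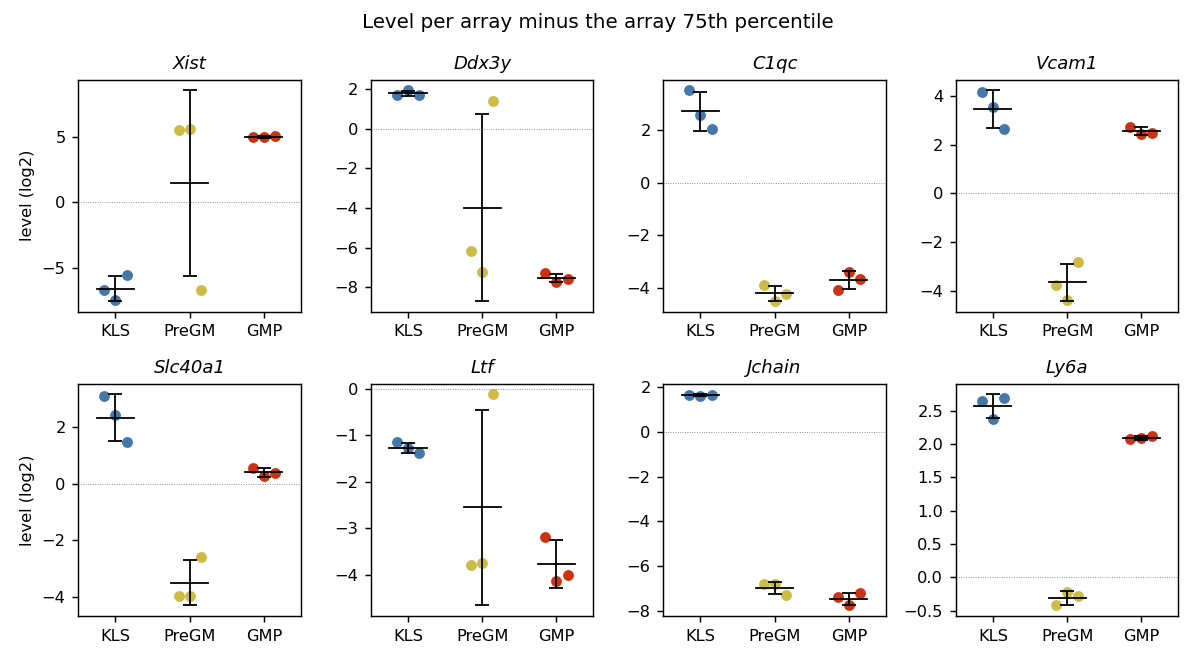
Levels of 8 transcripts that bear on the make-up of the samples, for 3 KLS, 3 PreGM and 3 GMP arrays. The vertical axes give log2 intensity minus the 75th percentile of the array, each point is 1 array, and bars are the mean ± SD (n = 3). Xist and Ddx3y split the PreGM arrays, C1qc and Jchain are high in KLS alone, and Vcam1, Slc40a1 and Ly6a are lowest in PreGM.

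A gene was called higher or lower at an adjusted p under 0.05 (limma, Benjamini-Hochberg) together with a change of at least 2-fold. Of 14318 genes tested, 1262 (8.81%) rose from KLS to GMP and 1810 (12.6%) fell, and the median of all genes was 0.11 on the log2 scale. GMP and KLS arrays did not overlap for 58.9% of genes. At the first step 300 genes rose (2.10%) and 951 fell (6.64%), with a median of 0.08. At the second step 660 rose (4.61%) and 938 fell (6.55%), with a median of 0.03. The change at the second step differed from that at the first, at an adjusted p under 0.05, for 1483 genes (10.4%), and for 800 and 793 without PreGM replicates 1 and 2. A net change was assigned to a step where the steps differed in that test and the larger one was called in the direction of the net change. By this rule 60 rises (0.419% of genes) belonged to the first step and 253 (1.77%) to the second, while 188 falls (1.31%) belonged to the first and 217 (1.52%) to the second. The other 949 rises (6.63%) and 1405 falls (9.81%) were spread over both steps or could not be separated, and 596 of the net rises and 502 of the net falls passed the call at neither step alone. Calls in opposite directions at the steps were made for 36 genes highest in PreGM (0.251%) and 81 genes lowest in PreGM (0.566%). Of the 101 genes named in the text that were assigned to a step, 32 lost the difference between steps when 1 array or another was left out and 46 lost it with slide as a block. Both steps use the same PreGM arrays, so an error in their mean moves the steps in opposite directions.

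**Figure D2:**
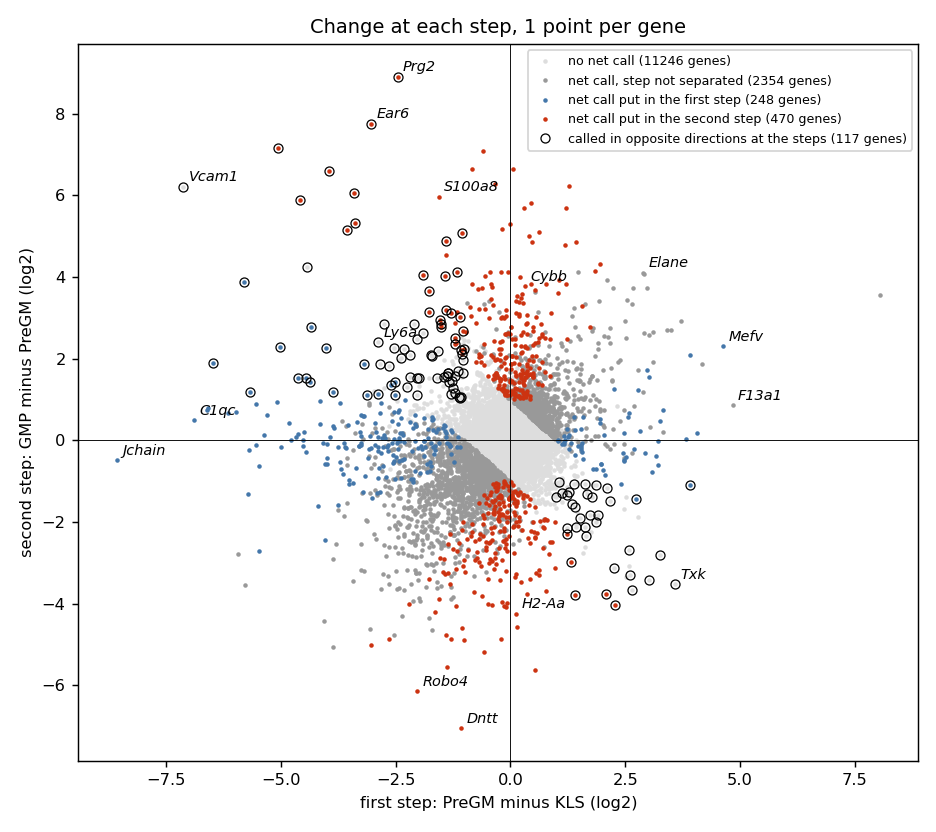
Change at the first step (horizontal axis, PreGM minus KLS) and at the second (vertical axis, GMP minus PreGM), both on the log2 scale, with 1 point per gene. Blue points are the 248 net changes assigned to the first step, red points the 470 assigned to the second, dark gray the 2354 not separated, and rings mark the 117 genes called in opposite directions at the steps.

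The median share of the net change that fell in the first step was 42.2% over the rises and 49.0% over the falls. The counts by step depended on how arrays were brought to 1 scale. Scaling to the spike-in RNAs moved the median of all genes from 0.11 to 0.51 for the net change, from 0.08 to -0.54 for the first step and from 0.03 to 1.05 for the second, and gave 3033 rises and 1331 falls for GMP against KLS. All changes below are relative to the 75th percentile. A block for the sex-linked transcripts gave 1513 net rises and 1657 falls.

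The 15 largest rises were taken among genes well above background on the 6 arrays. Clec5a, a lectin receptor that signals in myeloid cells, had levels of -3.67, -3.22 and -3.59 on the KLS arrays, -0.50, -0.91 and -0.32 on the PreGM arrays and 3.64, 3.34 and 3.54 on the GMP arrays, a net log2 change of 7.0 ± 0.32 (SE; adjusted p 4.4e-11). It rose at both steps, by 2.91 ± 0.32 and 4.09 ± 0.32. Mefv, which encodes the inflammasome sensor pyrin, had levels of -2.85, -2.89 and -2.68 on the KLS arrays, 2.19, 1.72 and 1.58 on the PreGM arrays and 4.16, 4.15 and 4.10 on the GMP arrays (6.94 ± 0.19, adjusted p 2.39e-13). More of its rise lay in the first step (4.64 ± 0.19) than in the second (2.31 ± 0.19), and the steps differed (adjusted p 0.00023). Mgam, an intestinal and neutrophil glucosidase, ran the other way, with -4.26, -3.40 and -4.45 on the KLS arrays, -3.31, -3.60 and -1.61 on the PreGM arrays and 2.96, 2.81 and 2.75 on the GMP arrays and an adjusted p of 0.00367 for the difference between steps. C3, the central complement component, rose by 1.95 ± 0.25 at the first step and 4.31 ± 0.25 at the second (adjusted p 0.00193 for the difference, 0.0931 with slide as a block). F10, the precursor of coagulation factor X, rose by 6.71 ± 0.36 and Trem3, an activating receptor of myeloid cells, by 6.38 ± 0.36, neither of them separated by step. Acod1, which makes itaconate, rose by 6.19 ± 0.83, but its PreGM levels of 2.04, 1.58 and -3.02 disagreed, with replicate 3 near the KLS levels of -3.25, -3.05 and -3.57. Other genes among the largest rises were Mogat2 (6.49 ± 0.60), Hp (6.65 ± 0.42), Prg2 (6.45 ± 0.53), Igsf6 (6.11 ± 0.39), Epx (6.04 ± 0.40), Hdc (6.0 ± 0.25) and Ms4a3 (5.98 ± 0.49), and Elane is described with its family.

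Robo4, a guidance receptor of endothelium and stem cells, had levels of 3.22, 3.30 and 3.27 on the KLS arrays, 1.46, 1.52 and 0.71 on the PreGM arrays and -4.75, -5.17 and -4.79 on the GMP arrays, a net change of -8.17 ± 0.21 (adjusted p 1.95e-13). Dntt, the terminal transferase of lymphoid precursors, had levels of 5.74, 5.74 and 5.51 on the KLS arrays, 4.66, 4.87 and 4.24 on the PreGM arrays and -2.31, -2.96 and -2.09 on the GMP arrays (-8.12 ± 0.39). Slc16a11, a monocarboxylate transporter family member, had levels of 4.30, 4.20 and 4.47 on the KLS arrays, 1.43, 1.62 and 0.85 on the PreGM arrays and -3.79, -4.20 and -3.17 on the GMP arrays (-8.05 ± 0.25). In each of these the KLS and GMP arrays lay far apart with PreGM nearer to KLS, and all 3 falls were assigned to the second step (adjusted p 1.88e-06, 2.4e-05 and 0.00621). Ctla2b and Ctla2a, inhibitors of cathepsins whose sequences are much alike, changed by -6.16 ± 0.42 and -6.16 ± 0.50 and were likewise assigned to the second step. Il17re, Pglyrp2 and Vldlr fell at both steps (-6.10 ± 0.33, -6.07 ± 0.54 and -6.05 ± 0.32 net), and Wfdc17 changed by -5.90 ± 0.42, assigned to the second. Others of the 15 were GIMAP genes and the macrophage genes C1qc (-6.40 ± 0.40), Fcna (-5.88 ± 0.56) and C1qa (-5.80 ± 0.39). The next ranking covers genes well above background on every KLS, PreGM and GMP array, which leaves out C1qa, also assigned to the first step. Among them the 5 largest falls assigned to the first step were C1qc and Fcna followed by Hmox1 (-4.67 ± 0.66), Cd5l (-4.58 ± 0.51) and Cbr2 (-4.40 ± 0.32). Of these only Cbr2 was not on the macrophage list, whose summed levels are given above.

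Of 16 primary granule genes tested, 12 rose from KLS to GMP (8.81% of all genes rose) and none fell, with a median change of 3.43. At the first step 9 rose (2.10% of all genes) and at the second 9 (4.61%). Elane, neutrophil elastase, had levels of -0.30, -0.73 and -0.33 on the KLS arrays, 2.21, 1.77 and 3.32 on the PreGM arrays and 6.58, 6.63 and 6.42 on the GMP arrays, a change of 7.0 ± 0.52. The 3 fractions did not overlap, and PreGM replicate 3 was the highest of the PreGM arrays. Prtn3, proteinase 3, the neighbor of Elane on the chromosome, had levels of 2.84, 2.49 and 3.08 on the KLS arrays, 5.15, 5.05 and 5.37 on the PreGM arrays and 7.08, 7.30 and 7.12 on the GMP arrays (4.36 ± 0.40). Mpo, myeloperoxidase, took another course, with 7.12, 7.0 and 7.54 on the KLS arrays, 9.27, 9.19 and 9.37 on the PreGM arrays and 8.98, 9.34 and 9.26 on the GMP arrays. It rose by 2.05 ± 0.60 at the first step and changed by -0.08 ± 0.60 at the second, so PreGM and GMP overlapped. Its first step was 2.0 without KLS replicate 1 (adjusted p 0.0572), 1.94 without KLS replicate 2 (adjusted p 0.0688) and 2.05 without PreGM replicate 1 (adjusted p 0.0557). Ctsg, cathepsin G, rose mostly at the first step too, with 5.20, 4.91 and 5.65 on the KLS arrays, 7.90, 7.75 and 8.20 on the PreGM arrays and 8.64, 8.87 and 8.83 on the GMP arrays and steps of 2.69 ± 0.53 and 0.83 ± 0.53, although the difference between its steps did not pass (adjusted p 0.231; Mpo 0.227). Ms4a3, a membrane protein that marks GMP, rose by 2.65 ± 0.49 and 3.33 ± 0.49 at the steps. Hp, haptoglobin, rose by 3.71 ± 0.42 and 2.93 ± 0.42, Igsf6 by 3.41 ± 0.39 and 2.70 ± 0.39, and Prss57, a serine protease of the same granules, by 1.11 ± 0.39 and 2.38 ± 0.39. The first step of Prss57 lost the call when any single array of the 9 was left out, at 0.93 to 1.23. Fcnb, ficolin B, was the 1 member assigned to the second step, with -4.12, -4.14 and -4.55 on the KLS arrays, -4.89, -5.35 and -3.59 on the PreGM arrays and 1.92, 1.62 and 1.48 on the GMP arrays. Lyz1 and Lyz2, near-identical lysozymes whose probes may not separate them, changed by 0.05 ± 0.55 and -0.11 ± 0.60, and Ctsc, the protease that activates the granule serine proteases, by 0.75 ± 0.23, of which 1.26 ± 0.23 came at the second step.

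The promoters of 5 genes are shown, 4 from this list and Dntt, which is among the genes that fell furthest. Dntt alone does not stand for the falls. Sequences are the 250 bases before the first listed start of each gene in RefSeq on GRCm38.p6, read 5′ to 3′ along the gene, and capitals mark AGGAAG, the core bound by PU.1 and other ETS factors, or its reverse complement CTTCCT.
Elane, chr10:79886062-79886311, plus strand: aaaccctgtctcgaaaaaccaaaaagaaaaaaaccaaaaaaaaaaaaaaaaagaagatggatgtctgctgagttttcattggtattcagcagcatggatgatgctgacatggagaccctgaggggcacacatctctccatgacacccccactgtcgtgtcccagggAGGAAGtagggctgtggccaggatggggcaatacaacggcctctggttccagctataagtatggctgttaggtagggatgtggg
Prtn3, chr10:79879417-79879666, plus strand: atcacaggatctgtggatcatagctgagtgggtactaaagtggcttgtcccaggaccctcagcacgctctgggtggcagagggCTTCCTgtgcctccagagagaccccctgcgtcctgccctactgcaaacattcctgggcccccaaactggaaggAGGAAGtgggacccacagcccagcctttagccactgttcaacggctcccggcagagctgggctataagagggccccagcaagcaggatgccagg
Mpo, chr11:87793534-87793783, plus strand: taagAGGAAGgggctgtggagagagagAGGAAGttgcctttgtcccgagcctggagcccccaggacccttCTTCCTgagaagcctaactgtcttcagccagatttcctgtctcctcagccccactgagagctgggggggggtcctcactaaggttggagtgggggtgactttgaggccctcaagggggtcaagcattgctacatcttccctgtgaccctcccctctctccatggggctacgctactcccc
Ctsg, chr14:56102575-56102824, minus strand: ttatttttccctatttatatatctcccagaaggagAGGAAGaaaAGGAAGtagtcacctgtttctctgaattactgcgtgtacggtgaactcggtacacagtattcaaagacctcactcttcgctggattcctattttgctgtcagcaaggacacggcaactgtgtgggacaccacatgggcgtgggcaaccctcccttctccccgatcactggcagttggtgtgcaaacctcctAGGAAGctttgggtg
Dntt, chr19:41029025-41029274, plus strand: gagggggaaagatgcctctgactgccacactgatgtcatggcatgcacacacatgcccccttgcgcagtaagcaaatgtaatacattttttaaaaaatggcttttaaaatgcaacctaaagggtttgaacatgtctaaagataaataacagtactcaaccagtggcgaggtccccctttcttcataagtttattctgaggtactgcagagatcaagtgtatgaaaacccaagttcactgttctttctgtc

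Promoters were found for 13 of the 16 primary granule genes. AGGAAG on either strand was present in 12 of them (92.3%), against 28.3% of 11448 tested genes with a promoter and 29.2% of 27025 promoters in all. Among 19 stem cell genes with a promoter 5 held it (26.3%), among 34 endoplasmic reticulum genes 4 (11.8%) and among 6 MHC class II genes 2 (33.3%). The RUNX core TGTGGT was in 4 of the 13 (30.8%, against 11.4% of tested genes). AGATAA, bound by GATA factors, was in 0 of the 13 (6.89% of tested genes), and the C/EBP motif TTGCNNAA in 2 (15.4%, against 7.96%). These 4 motifs were searched on both strands in the same window, where matches may overlap. The Dntt window held no AGGAAG, and that of Robo4, another of the largest falls, held 1, 49 bases before the start. A match describes the letters in this window and is not a measured site of binding.

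**Figure D3:**
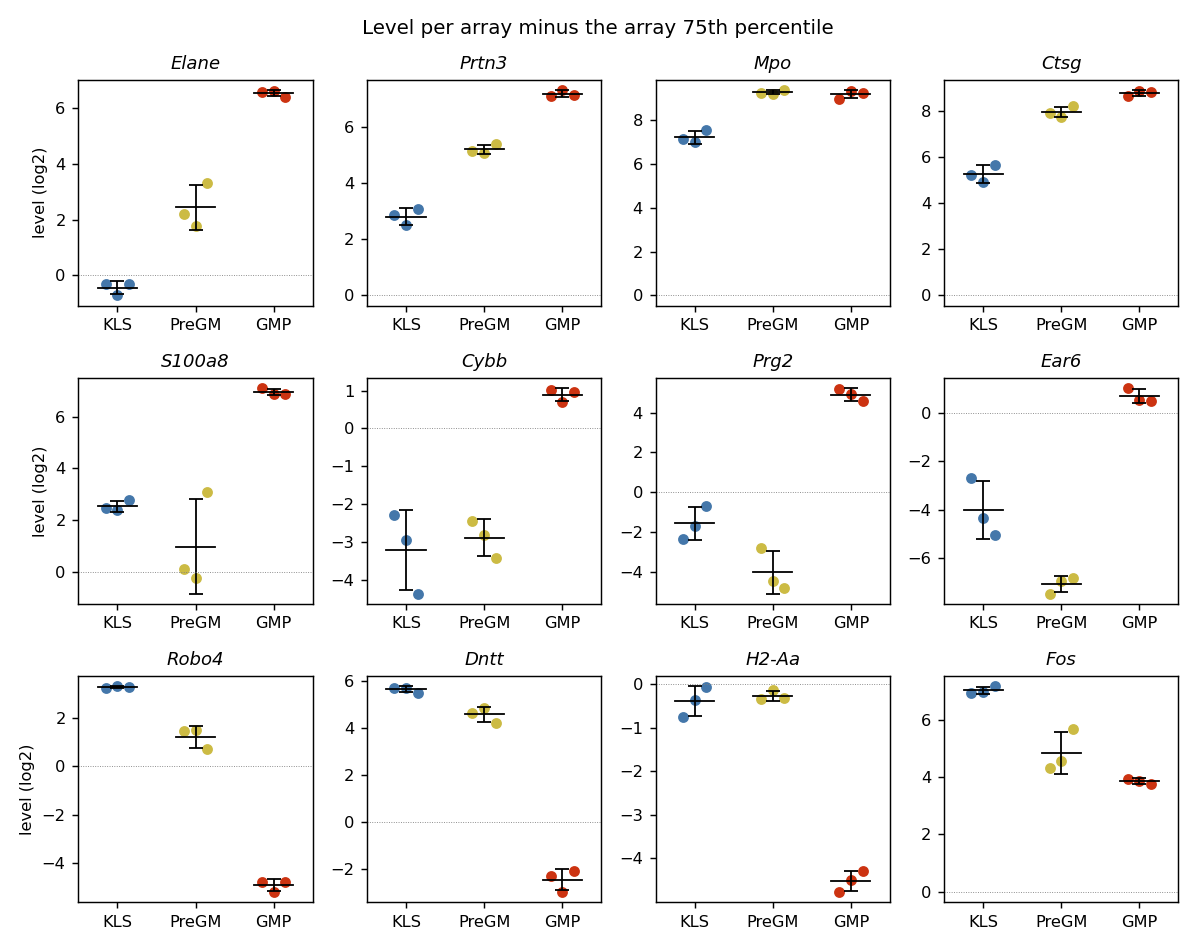
Levels of 12 genes on the KLS, PreGM and GMP arrays, as log2 intensity minus the 75th percentile of the array. Each point is 1 array and bars are the mean ± SD (n = 3). Elane and Prtn3 rise at both steps, Mpo and Ctsg mainly at the first, S100a8 and Cybb at the second, Prg2 and Ear6 are lowest in PreGM, and Robo4, Dntt and H2-Aa are far lower in GMP than in PreGM.

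Of 14 secondary and tertiary granule genes tested, 6 rose and 2 (14.3%, against 12.6% of all genes) fell from KLS to GMP, with a median of 1.33, and 8 rose at the second step. S100a8, a subunit of the calcium-binding protein calprotectin, had levels of 2.47, 2.38 and 2.79 on the KLS arrays, 0.11, -0.23 and 3.07 on the PreGM arrays and 7.10, 6.88 and 6.88 on the GMP arrays (4.41 ± 0.68). Its partner S100a9 had levels of 3.53, 3.78 and 4.24 on the KLS arrays, 1.74, 1.14 and 4.46 on the PreGM arrays and 7.27, 6.88 and 6.78 on the GMP arrays (3.13 ± 0.68). In both, PreGM replicates 1 and 2 lay below KLS and replicate 3 above it, and all GMP arrays lay above the others. Lcn2 (2.90 ± 0.73), Chil3 (3.05 ± 0.54), Itgb2l (2.10 ± 0.40) and Mmp8 (2.32 ± 0.49) also rose, Mmp8 at the first step and Chil3 and Itgb2l at the second. Ltf, lactoferrin, which marks a later stage of the neutrophil lineage, had levels of -1.15, -1.28 and -1.37 on the KLS arrays, -3.79, -3.75 and -0.12 on the PreGM arrays and -3.19, -4.13 and -4.0 on the GMP arrays and fell (-2.51 ± 0.81; -2.33 without GMP replicate 2 (adjusted p 0.0557)). With the block for sex-linked transcripts its sign turned. Padi4, the histone deiminase of neutrophils, changed by -2.19 ± 0.19. Camp and Ngp, granule proteins of the same later stage, changed by 1.46 ± 0.70 and 0.19 ± 0.67. Without PreGM replicate 3, 8 genes of the list instead of 1 were lower in PreGM than in KLS, and without GMP replicate 3, 4 fell from KLS to GMP instead of 2.

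Of 7 genes of the phagocyte NADPH oxidase, which makes superoxide, 5 rose and none fell (median 1.35). The catalytic subunit Cybb had levels of -2.29, -2.96 and -4.36 on the KLS arrays, -2.45, -2.80 and -3.42 on the PreGM arrays and 1.02, 0.70 and 0.96 on the GMP arrays (4.10 ± 0.40), a rise assigned to the second step (adjusted p 0.0596 for the difference between steps with slide as a block). Its membrane partner Cyba rose by 1.35 ± 0.23 and the cytosolic subunits Ncf1 and Ncf4 by 1.97 ± 0.24 and 1.69 ± 0.42, while the GTPases Rac2 and Rac1 changed by 0.89 ± 0.17 and 0.45 ± 0.12. Of 23 pattern recognition genes 8 rose and 3 fell (median 0.86), where 8.81% of all genes rose and 12.6% fell. The share of falls on this list was thus close to that of all genes. Besides Clec5a, the rises were Cd14 (3.41 ± 0.39), Ly86 (3.36 ± 0.49), Tlr2 (2.93 ± 0.40), Tlr1 (2.24 ± 0.37), Clec4e (1.75 ± 0.27), Irak3 (1.47 ± 0.20) and Clec4d (1.42 ± 0.39), of which Cd14 is the coreceptor for lipopolysaccharide and Irak3 a brake on the pathway. The falls were Tlr7 (-2.57 ± 0.20), Ly96 (-1.49 ± 0.20) and Nod2 (-1.35 ± 0.36). Tlr4, the receptor for lipopolysaccharide, was lowest in PreGM, with -1.67, -1.75 and -2.27 on the KLS arrays, -4.95, -4.53 and -3.16 on the PreGM arrays and -2.03, -2.20 and -1.70 on the GMP arrays, and changed by -0.08 ± 0.34 net. Of 31 lysosomal genes 9 rose (29.0%) and 3 fell (9.68%, against 12.6% of all genes), with a median of 0.56 (15 rose with spike-in scaling). The rises were led by Arsb (2.93 ± 0.16), Gla (2.62 ± 0.15), Neu1 (2.44 ± 0.13), Ctsh (1.94 ± 0.16) and Ctsz (1.86 ± 0.12), enzymes that cleave sulfated glycans, galactolipids, sialic acid and proteins. Lgmn, the asparaginyl protease legumain of macrophages, changed by -5.26 ± 0.49, and Ctsf by -1.86 ± 0.19. Lgmn, Tlr7 and Tlr4 are also expressed by macrophages, whose markers were high in KLS.

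Of 17 monocyte and dendritic cell genes tested, 12 rose (8.81% of all genes rose) and 1 fell (12.6%) over the whole path, with a median of 2.33. At the first step 8 rose (2.10% of all genes) and 3 fell (6.64%), and at the second 4 rose (4.61%) and none fell. F13a1, coagulation factor XIII A of monocytes, had levels of -0.28, -0.45 and -0.01 on the KLS arrays, 4.69, 4.50 and 4.58 on the PreGM arrays and 5.51, 5.55 and 5.27 on the GMP arrays (5.69 ± 0.71), and 4.84 ± 0.71 of this lay in the first step. Ccr2, the receptor that draws monocytes from the marrow, had levels of -3.38, -3.16 and -3.56 on the KLS arrays, 0.53, 0.55 and 1.0 on the PreGM arrays and 0.96, 0.82 and 0.84 on the GMP arrays, a rise assigned to the first step (adjusted p 0.000443). Csf1r, the receptor for the macrophage growth factor CSF1, rose by 2.03 ± 0.28 at the first step and changed by 0.14 ± 0.28 at the second, and Irf8, the factor that favors monocytes over neutrophils, by 2.65 ± 0.60 and -0.32 ± 0.60. Cx3cr1, Ms4a6c and Ly86 showed the same course, with first steps of 3.16 ± 0.34, 2.70 ± 0.29 and 3.04 ± 0.49. Ly6c2, the Ly6C antigen, and Cd14 had second steps of 3.02 ± 0.41 and 2.66 ± 0.39, and the difference between the steps passed for Ly6c2 and did not for Cd14. Clec4a2 was highest in GMP and lowest in PreGM, with 1.29, 0.40 and 0.06 on the KLS arrays, -3.26, -3.73 and -1.47 on the PreGM arrays and 3.36, 3.28 and 3.06 on the GMP arrays. Klf4, a factor of monocytes that stem cells also express, changed by -3.13 ± 0.22, most of it at the first step (-2.82 ± 0.22).

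Of 17 eosinophil, basophil and mast cell genes tested, 13 rose (76.5%, against 8.81% of all genes) and 2 fell (11.8%, against 12.6%) over the whole path. The median was 2.64. At the first step 6 rose and 7 fell, and at the second 9 rose and 2 fell, with 6 genes lowest in PreGM (0.566% of all genes were lowest in PreGM). Prg2, eosinophil major basic protein, had levels of -2.32, -1.68 and -0.66 on the KLS arrays, -2.80, -4.44 and -4.78 on the PreGM arrays and 5.20, 4.94 and 4.56 on the GMP arrays, with steps of -2.46 ± 0.53 and 8.91 ± 0.53. Prss34, a basophil protease, moved likewise (-1.05 ± 0.24 and 5.09 ± 0.24; the first step was -0.87 without KLS replicate 3 (adjusted p 0.0219) and -0.92 without PreGM replicate 1 (adjusted p 0.0266)). The eosinophil ribonucleases Ear1, Ear6, Ear10 and Rnase2a are closely related and their probes may not separate them. Ear1 had levels of 0.16, -0.85 and -1.33 on the KLS arrays, -5.98, -5.94 and -5.30 on the PreGM arrays and 1.71, 1.34 and 1.18 on the GMP arrays, below background on all PreGM arrays and at least 102-fold higher in GMP. Ear6 was at least 61.4-fold higher in GMP than in PreGM and Ear10 at least 28.8-fold higher, and Rnase2a rose by 6.58 ± 0.29. On the KLS arrays Ear1, Ear6 and Ear10 were highest in replicate 1 and lowest in replicate 3, as C1qc and Vcam1 were. Prg2 ran in the reverse order there, and the source of these transcripts was not tested. Epx, eosinophil peroxidase, and Prg3, a homolog of major basic protein, had no low point in PreGM. They rose by 6.04 ± 0.40 and 5.97 ± 0.31, Prg3 at the second step alone (5.68 ± 0.31). Several genes of basophils and mast cells rose at the first step. Hdc, which makes histamine, had levels of -0.65, -0.89 and -0.52 on the KLS arrays, 3.0, 2.71 and 3.94 on the PreGM arrays and 5.39, 5.36 and 5.19 on the GMP arrays, and its rise of 6.0 ± 0.25 was assigned to the first step, an assignment lost without PreGM replicate 3. Cpa3, mast cell carboxypeptidase, rose by 3.21 ± 0.67 there and changed by -0.60 ± 0.67 afterwards, and Mcpt8, the basophil protease, rose by 2.48 ± 0.37. Ms4a2, the beta chain of the IgE receptor, was below background in KLS and at least 8.13-fold higher in PreGM. Gata2 held its level to PreGM and then fell (-2.11 ± 0.21), Il1rl1, the receptor for IL-33, was highest in PreGM (2.11 ± 0.35 and -1.18 ± 0.35; the second step was -0.72 without PreGM replicate 3 (adjusted p 0.114) and -1.05 without GMP replicate 3 (adjusted p 0.066)), and Ccr3, the eotaxin receptor, fell at the first step (-4.15 ± 0.49).

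Genes of protein entry, folding and glycosylation in the endoplasmic reticulum rose in most cases. Of 42 tested, 30 rose from KLS to GMP and none fell (median 1.43), with 3 rises at the first step and 11 at the second. The other 12 changed by -0.57 to 1.0 (Spcs1). Sdf2l1, a cofactor of the chaperone BiP, had levels of 0.82, 0.51 and 1.21 on the KLS arrays, 2.15, 1.82 and 2.12 on the PreGM arrays and 3.79, 3.90 and 3.60 on the GMP arrays (2.92 ± 0.16). Ero1a, which passes oxidizing equivalents to the disulfide isomerases, had levels of -0.95, -0.84 and -0.66 on the KLS arrays and 1.65, 1.61 and 1.64 on the GMP arrays (2.45 ± 0.12), and its relative Ero1b rose by 2.0 ± 0.14. The isomerase P4hb rose by 2.08 ± 0.11, and the lectin chaperone Calr by 1.89 ± 0.15. Each part of the entry route was represented, with the channel subunits Sec61b (1.71 ± 0.17), Sec61g (1.69 ± 0.17) and Sec61a1 (1.42 ± 0.11), the signal peptidase subunits Spcs3 (1.83 ± 0.15) and Spcs2 (1.56 ± 0.15), the translocon-associated proteins Ssr2 (1.65 ± 0.15) and Ssr4 (1.62 ± 0.17) and the oligosaccharyl transferase subunits Ddost (1.87 ± 0.13), Ostc (1.82 ± 0.12) and Rpn1 (1.71 ± 0.12). Xbp1, the factor that drives the unfolded protein response in secretory cells, rose by 1.27 ± 0.26, at the second step (1.21 ± 0.26). Genes that acute stress of this compartment induces went different ways. Sdf2l1 and Xbp1 rose, as given above, while several others did not pass the call. Hspa5, which encodes BiP, changed by -0.01 ± 0.31, and Herpud1, Atf4, Ddit3 and Dnajb9 by -0.15 ± 0.23, -0.19 ± 0.24, -0.38 ± 0.44 and -0.57 ± 0.17. At the first step 0 rose and 2 fell with spike-in scaling, and at the second 42 rose.

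Among 7 genes of the pentose phosphate pathway, the source of NADPH for the oxidase and for synthesis, 6 rose and none fell (median 1.14; 3 rose with quantile scaling). Pgd, phosphogluconate dehydrogenase, had levels of 2.79, 2.64 and 2.70 on the KLS arrays, 3.37, 3.29 and 3.73 on the PreGM arrays and 5.07, 5.14 and 5.23 on the GMP arrays (2.44 ± 0.11), and G6pdx, the entry enzyme, had levels of 2.62, 2.48 and 2.85 on the KLS arrays, 3.62, 3.44 and 3.73 on the PreGM arrays and 4.65, 4.60 and 4.24 on the GMP arrays (1.85 ± 0.13). Rpe and Taldo1 rose by 1.58 ± 0.18 and 1.14 ± 0.12, and H6pd, the form in the endoplasmic reticulum, changed by 0.46 ± 0.19. Of 25 glycolysis genes 10 rose and 4 fell (median 0.88), where 8.81% of all genes rose and 12.6% fell. Of the 4 falls, 3 were of isoenzymes whose relatives rose. Hk3, the hexokinase of myeloid cells, rose by 2.23 ± 0.26 while Hk1 and Hk2 changed by 0.12 ± 0.14 and 0.80 ± 0.12. Among phosphofructokinases Pfkp rose (1.61 ± 0.11), Pfkm fell (-1.63 ± 0.14) and Pfkl changed by -0.03 ± 0.12. Aldoa rose (1.30 ± 0.17) and Aldoc fell (-3.81 ± 0.19), with Aldoc levels of 0.49, 0.60 and 0.70 on the KLS arrays, -1.50, -1.50 and -1.75 on the PreGM arrays and -3.13, -3.29 and -3.22 on the GMP arrays. Eno1 rose (1.55 ± 0.14) and Eno2 fell (-2.71 ± 0.50). The glucose transporter Slc2a3 fell, with levels of 3.06, 3.29 and 3.29 on the KLS arrays, 1.73, 1.62 and 1.30 on the PreGM arrays and 0.06, 0.11 and -0.04 on the GMP arrays (-3.17 ± 0.11), and Slc2a1 changed by 0.03 ± 0.24. The lactate transporters Slc16a1 and Slc16a3 rose by 1.76 ± 0.16 and 1.76 ± 0.21, and Pgam1, Gpi1 and Pfkfb3 by 1.88 ± 0.14, 1.43 ± 0.13 and 1.24 ± 0.15. Ldhb was lowest in PreGM, with steps of -1.37 ± 0.12 and 1.66 ± 0.12.

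In the TCA cycle 6 of 22 genes rose and none fell (median 0.83), a count of 1 with quantile scaling and 15 with spike-in scaling. Idh1, the cytosolic isocitrate dehydrogenase that makes NADPH, had levels of -2.15, -2.40 and -2.89 on the KLS arrays, -1.62, -1.71 and -1.32 on the PreGM arrays and -0.04, 0.03 and 0.21 on the GMP arrays (2.55 ± 0.22), and Pdha1, of the pyruvate dehydrogenase complex, rose by 1.24 ± 0.10. Cholesterol synthesis moved little as a list, with 1 of 24 higher and 3 lower, where 8.81% of all genes rose and 12.6% fell. Its median was -0.01 and turned positive with spike-in scaling. The 1 rise was Fdps, which makes farnesyl diphosphate for several pathways (2.06 ± 0.20), and the falls included Srebf2 (-1.41 ± 0.17) and Stard4 (-1.17 ± 0.16), the master factor of the pathway and a sterol carrier. Nucleotide synthesis had 3 of 31 higher, 9.68% against 8.81% of all genes (15 with spike-in scaling), Gmps (1.40 ± 0.14) and Mthfd2 (1.13 ± 0.18) among them, with a median of 0.59.

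Ribosome biogenesis, DNA replication and mitosis genes stayed within 2-fold for nearly every member. Over all genes 8.81% rose and 12.6% fell. Their counts of rises were 3 of 36, 1 of 33 and 1 of 27 with no fall, at medians of 0.51, 0.52 and 0.56. With spike-in scaling these counts became 13, 14 and 11, and without KLS replicate 2 the ribosome biogenesis count was 0. Cdc45 (1.21 ± 0.21), the helicase component of replication forks, was the replication gene and Ccnb1 (1.28 ± 0.17), cyclin B1, the mitotic gene. For mitosis the first step had a median of -0.22 and the second of 0.79, with Plk1 (1.22 ± 0.18), Ube2c (1.19 ± 0.23) and Ttk (1.16 ± 0.26) higher in GMP than in PreGM. That of Ube2c was 0.99 without PreGM replicate 3 (adjusted p 0.0069). Of 23 G1 regulators 2 rose (8.7%, against 8.81% of all genes) and 2 fell (8.7%, against 12.6%), so the list as a whole did not exceed the share of all genes. Cdkn1c, the inhibitor p57 of quiescent stem cells, had levels of 0.11, 0.19 and 0.43 on the KLS arrays, -2.40, -2.33 and -2.25 on the PreGM arrays and -2.67, -3.32 and -2.67 on the GMP arrays, a change of -3.13 ± 0.19 assigned to the first step. Cdkn1a, the inhibitor p21, changed by -1.17 ± 0.41, assigned to the second step (-1.93 ± 0.41), and the net value was -0.76 without KLS replicate 1 (adjusted p 0.159) and -1.05 without GMP replicate 3 (adjusted p 0.0792). E2f8, a repressor of the cell cycle, rose by 1.23 ± 0.16. Cdk6, the G1 kinase, was highest in PreGM, with 1.37, 1.15 and 1.69 on the KLS arrays, 2.48, 2.49 and 2.59 on the PreGM arrays and 0.98, 1.31 and 1.41 on the GMP arrays, and called at both steps (1.11 ± 0.17 and -1.28 ± 0.17; the first step was 0.99 without KLS replicate 2 (adjusted p 0.00155)).

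**Figure D4:**
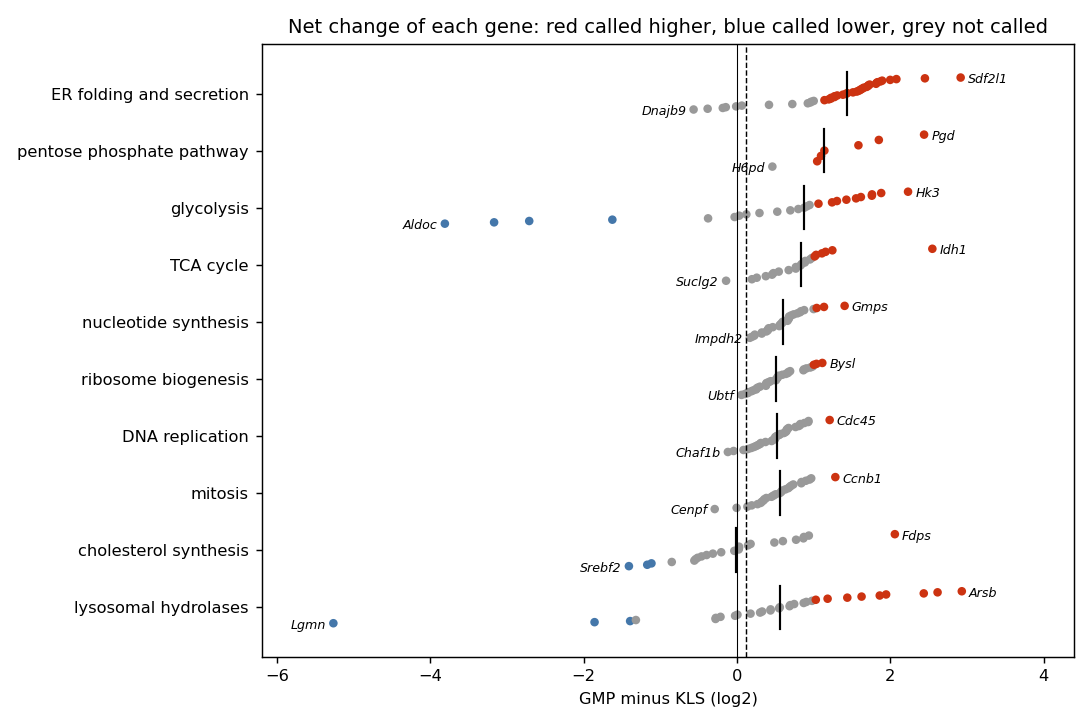
Net change from KLS to GMP (horizontal axis, log2) of each gene on 10 lists. Each point is 1 gene, red where called higher, blue where called lower and gray where not called, black bars are list medians, and the dashed line is the median of all genes (0.11). The endoplasmic reticulum and pentose phosphate lists lie to the right of the line almost whole, glycolysis splits to both sides, and cholesterol synthesis is centered near 0.

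Of 29 stem and multipotent progenitor genes tested, 23 fell (12.6% of all genes fell) and none rose, with a median of -3.23 (-3.02 with genes below background at their bound). The list includes genes of sorting antigens, Slamf1 (CD150), Ly6a (Sca1) and Kit, whose changes may follow from the gates. At the first step 19 fell (6.64%), and at the second 16 fell (6.55%) and 2 rose. Besides Robo4, the surface receptor Procr had levels of 2.82, 2.70 and 2.84 on the KLS arrays, -0.46, -0.11 and -0.41 on the PreGM arrays and -2.36, -2.29 and -2.28 on the GMP arrays (-5.09 ± 0.31). Hlf, a transcription factor of stem cells, had levels of 4.09, 4.13 and 4.22 on the KLS arrays, 1.77, 1.83 and 1.31 on the PreGM arrays and -0.41, -0.47 and -0.48 on the GMP arrays (-4.60 ± 0.27), and Meis1, the partner of HOX proteins, changed by -3.88 ± 0.47. Mycn was at least 110-fold lower in GMP and Fgd5 at least 27.2-fold lower, both below background there, with first steps of -2.55 ± 0.42 and -3.86 ± 0.24. Gfi1b, a repressor shared with the megakaryocyte and erythroid lineages, kept its level in PreGM and then fell, with 1.76, 2.05 and 2.36 on the KLS arrays, 1.88, 1.92 and 2.11 on the PreGM arrays and -1.99, -2.14 and -1.92 on the GMP arrays. Angpt1 and Tek were assigned to the second step as well, and Socs2 and Ndn to the first, and apart from that of Socs2 these assignments were lost when 1 array or another was left out. Socs2, the feedback inhibitor of cytokine receptors, changed by -2.54 ± 0.29 at the first step and changed by 0.05 ± 0.29 at the second. Txnip, Cish and Cd34 changed by 0.19 ± 0.23, -0.90 ± 0.84 and -1.03 ± 0.72. Sult1a1 and Ly6a were the 2 members that rose at the second step after a fall at the first, and the second step of Sult1a1 was 0.98 without PreGM replicate 1 (adjusted p 0.083), 1.12 without PreGM replicate 2 (adjusted p 0.0532) and 1.06 without GMP replicate 1 (adjusted p 0.0687). Of 16 HOX genes 9 fell and none rose (median -1.58), 6 at the first step and 5 at the second. Hoxa10 was at least 18-fold lower in GMP, Hoxa9 had levels of 2.65, 2.81 and 3.09 on the KLS arrays, 1.81, 1.62 and 1.56 on the PreGM arrays and 0.48, 0.63 and 0.32 on the GMP arrays (-2.37 ± 0.25), and Hoxa7 fell at the second step alone (-1.35 ± 0.22). Hoxa2 (-3.49 ± 0.41), Hoxb2 (-3.08 ± 0.37), Hoxa5 (-2.27 ± 0.49) and Hoxb3 (-1.82 ± 0.34) also fell, while Hoxa3, Hoxb4, Hoxa6 and Hoxa4 changed by 0.02 ± 0.23, 0.31 ± 0.20, -0.59 ± 0.36 and -0.65 ± 0.27.

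Of 22 lymphoid priming genes 14 fell and 1 rose (median -1.47; -1.35 bounded), 7 falling at the first step and 10 at the second. Flt3, a receptor of lymphoid-primed progenitors, had levels of 2.05, 2.44 and 1.77 on the KLS arrays, 0.77, 0.89 and 0.65 on the PreGM arrays and -2.98, -2.91 and -2.32 on the GMP arrays (-4.82 ± 0.26), assigned to the second step. Il7r, the receptor for IL-7, was above background in KLS and PreGM and at least 5.22-fold lower in GMP than in KLS. Blnk and Satb1 changed by -3.92 ± 0.22 and -1.99 ± 0.20, also at the second step, and Ltb and Lck by -4.19 ± 0.43 and -4.15 ± 0.21 over both. Ccr9, the receptor that leads progenitors to the thymus, fell at the first step (-1.74 ± 0.19). Cnr2, cannabinoid receptor 2, was the 1 rise (2.54 ± 0.20). Of the 7 GIMAP genes, GTPases of lymphocytes that lie in 1 cluster, 6 fell and none rose (median -3.55). Gimap6 had levels of 4.26, 4.19 and 3.99 on the KLS arrays, 2.82, 2.88 and 1.81 on the PreGM arrays and -1.59, -1.76 and -1.75 on the GMP arrays (-5.84 ± 0.30), Gimap5 (-6.36 ± 0.65) and Gimap1 (-5.22 ± 0.68) fell with it, and Gimap9 changed by -0.88 ± 0.14.

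Of 25 megakaryocyte and erythroid genes tested, 18 fell and 1 rose over the whole path (median -2.52), 6 fell and 2 rose at the first step, and 16 fell at the second. With spike-in scaling 11 fell at the first step, and 12 fell and 2 rose at the second. Aqp1, the water channel of red cells, had levels of 1.15, 1.25 and 2.52 on the KLS arrays, 1.97, 2.03 and 2.49 on the PreGM arrays and -3.54, -3.62 and -3.22 on the GMP arrays (-5.10 ± 0.29). Zfpm1, the GATA1 partner FOG1, had levels of 4.13, 4.06 and 4.58 on the KLS arrays, 3.71, 3.68 and 3.81 on the PreGM arrays and 1.31, 1.26 and 0.83 on the GMP arrays (-3.12 ± 0.20). Epor, the erythropoietin receptor, changed by -2.49 ± 0.25 at the second step after a change of -0.44 ± 0.25 at the first, and Klf1, Gp1ba, Treml1 and Car1 ran the same course, with second steps of -2.36 ± 0.41, -2.41 ± 0.27, -3.38 ± 0.25 and -2.62 ± 0.33. Gata1 itself was highest in PreGM, with -2.31, -2.19 and -1.42 on the KLS arrays, -0.92, -0.92 and -0.42 on the PreGM arrays and -2.94, -3.20 and -2.58 on the GMP arrays and steps of 1.22 ± 0.24 and -2.15 ± 0.24. Itgb3, integrin beta 3, rose at the first step (1.41 ± 0.29). Hba-a1 and Ppbp, transcripts of red cells and platelets, fell at the first step instead (-2.89 ± 0.26 for Hba-a1, and Ppbp at least 3.05-fold lower). Car2 and Pf4 fell over both steps by -4.09 ± 0.12 and -3.96 ± 0.31, Nfe2 changed by -0.53 ± 0.22, and Tfrc, the transferrin receptor, was the 1 rise (1.07 ± 0.18). Of 8 red cell genes in a separate list of mature cell markers, 5 fell from KLS to GMP.

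Of 62 transcription factors of myeloid and stem cells, 9 rose (8.81% of all genes rose) and 21 fell (12.6%). The median was -0.35, positive with spike-in scaling. At the first step 9 rose (14.5%, against 2.10% of all genes) and 4 fell (6.45%, against 6.64%). At the second 5 rose (8.06%, against 4.61%) and 14 fell (22.6%, against 6.55%). These counts turned with spike-in scaling, to 2 rises and 15 falls at the first step and 20 rises and 6 falls at the second. Spi1, which encodes PU.1, had levels of -0.93, -0.79 and -0.55 on the KLS arrays, 0.85, 0.78 and -0.18 on the PreGM arrays and 0.66, 0.94 and 0.52 on the GMP arrays (1.47 ± 0.36), and 1.24 ± 0.36 of that came at the first step, a value that was 1.16 without KLS replicate 1 (adjusted p 0.0611), 1.22 without KLS replicate 2 (adjusted p 0.0541), 1.06 without PreGM replicate 1 (adjusted p 0.0832) and 1.09 without PreGM replicate 2 (adjusted p 0.0732). Cebpa, the factor required to form GMP, had levels of 0.41, 0.59 and 0.68 on the KLS arrays, 2.06, 1.96 and 2.59 on the PreGM arrays and 2.57, 2.61 and 2.37 on the GMP arrays (1.96 ± 0.31), again with most at the first step (1.65 ± 0.31). Cebpd rose at both (1.51 ± 0.16 and 1.21 ± 0.16), Cebpb at the second (1.05 ± 0.17; 0.93 without PreGM replicate 3 (adjusted p 0.00143) and 0.95 without GMP replicate 2 (adjusted p 0.00182)), and Nfil3, Zeb2 and Lmo4 at the first (1.53 ± 0.24, 1.41 ± 0.11 and 1.32 ± 0.19). Mitf and Tfec, related factors of mast cells and macrophages, rose at the second step (3.33 ± 0.70 and 1.41 ± 0.19). Gfi1, the repressor that favors neutrophils, had levels of 1.94, 2.07 and 2.07 on the KLS arrays, 0.64, 0.75 and 2.32 on the PreGM arrays and 3.41, 3.42 and 3.43 on the GMP arrays, with PreGM replicates 1 and 2 below KLS and replicate 3 above it, and passed the call at the second step alone (2.19 ± 0.63; net 1.40 ± 0.63), where it was 1.89 without PreGM replicate 1 (adjusted p 0.0725) and 1.94 without PreGM replicate 2 (adjusted p 0.0687). Falls included Gata3, Erg, Nfia, Ikzf2 and Foxo3 (-5.63 ± 0.49, -2.25 ± 0.53, -3.13 ± 0.13, -2.27 ± 0.47 and -2.06 ± 0.17). Batf3 was highest in PreGM (1.31 ± 0.21 and -2.98 ± 0.21). Runx1, Fli1, Myb, Myc, Lyl1 and Tcf3 moved by less than 2-fold, with -0.15 ± 0.13, 0.03 ± 0.31, 0.72 ± 0.16, -0.35 ± 0.31, 0.21 ± 0.19 and -0.21 ± 0.11.

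Of 33 cytokine receptor genes 7 rose and 9 fell (median -0.09, positive with spike-in scaling, where 11 rose). The rises held the chains for GM-CSF and the IL-3 family, Csf2ra (1.62 ± 0.13) and Csf2rb (1.76 ± 0.27), with Csf1r, the interferon gamma receptor chain Ifngr1 (1.46 ± 0.15), and the TNF receptor Tnfrsf1b (1.24 ± 0.21). Csf2ra had levels of 4.04, 3.94 and 4.07 on the KLS arrays, 4.27, 4.10 and 4.25 on the PreGM arrays and 5.69, 5.67 and 5.55 on the GMP arrays, a rise assigned to the second step (adjusted p 0.0941 for the difference with slide as a block). Csf3r, the receptor for the neutrophil growth factor G-CSF, had levels of 1.08, 0.98 and 1.04 on the KLS arrays, 0.70, 0.63 and 0.98 on the PreGM arrays and 1.47, 1.34 and 1.22 on the GMP arrays and changed by 0.31 ± 0.31. Besides Flt3, Il7r, Tek and Epor, the falls held Il18r1 (-5.42 ± 0.60), Tnfrsf13c (-5.17 ± 1.04), Il1r1 (-3.89 ± 0.20) and Il2rg (-1.16 ± 0.16). Of 25 genes of TGF beta and BMP signaling 8 fell and none rose (median -0.80), with the receptors Tgfbr2, Eng and Acvr1b at -2.04 ± 0.18, -1.89 ± 0.11 and -2.10 ± 0.32, the inhibitor Smad7 at -2.03 ± 0.51 and Ltbp3, which stores the ligand, at -2.69 ± 0.20. CD105, the product of Eng, was a sorting antigen. Smad2, Smad4 and Tgfbr1 changed by 0.27 ± 0.12, -0.22 ± 0.13 and 0.25 ± 0.18. Of 29 Notch and Wnt genes 12 fell and none rose (median -0.88; 7 fell with spike-in scaling). Hes1, a target of Notch, had levels of -0.94, -0.67 and -1.32 on the KLS arrays, -2.94, -2.45 and -4.74 on the PreGM arrays and -5.21, -5.37 and -3.82 on the GMP arrays (-3.82 ± 0.48), its relative Hey1 changed by -5.12 ± 0.39, and the ligand Jag2 changed by -4.62 ± 0.57. The receptor Notch1 changed by -0.88 ± 0.31, and Tcf7l2, a factor of the Wnt pathway, changed by -3.61 ± 0.14.

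Of 9 MHC class II genes, which present antigen to helper T cells, 6 fell over the path (median -1.79), and 7 fell at the second step after a median of -0.07 at the first. H2-Aa had levels of -0.75, -0.37 and -0.07 on the KLS arrays, -0.35, -0.14 and -0.33 on the PreGM arrays and -4.76, -4.50 and -4.29 on the GMP arrays. Cd74, the invariant chain, had levels of 1.88, 2.09 and 2.42 on the KLS arrays, 2.17, 2.0 and 1.94 on the PreGM arrays and -1.07, -1.30 and -1.09 on the GMP arrays. H2-Ab1 had levels of 2.46, 2.65 and 3.14 on the KLS arrays, 3.28, 3.12 and 3.16 on the PreGM arrays and 1.0, 1.07 and 0.81 on the GMP arrays. In each of these the KLS and PreGM arrays overlapped or nearly so and GMP lay below. Ciita, the transactivator of the group, changed by -2.71 ± 0.32 at the second step, and H2-DMb1 changed by 0.16 ± 0.29 net. Of 16 MHC class I genes tested, only Nlrc5, their transactivator, fell (-1.63 ± 0.23), and B2m, H2-K1 and Psmb8 changed by -0.05 ± 0.11, -0.60 ± 0.10 and 0.52 ± 0.20. With quantile scaling 3 fell. Interferon-stimulated genes were lower in GMP, with 14 of 28 falling and none rising (median -1.18), 9 at the first step and 8 at the second. With spike-in scaling 18 fell at the first step, and 1 fell and 4 rose at the second. Ifi44 had levels of 0.64, -0.04 and 0.30 on the KLS arrays, -1.99, -1.39 and -1.95 on the PreGM arrays and -4.01, -4.13 and -2.60 on the GMP arrays (-3.88 ± 0.31). Ifit3 (-4.20 ± 0.27), Oas2 (-3.46 ± 0.14), Ifitm1 (-3.06 ± 0.38), Oasl2 (-2.82 ± 0.11) and Irf7 (-2.62 ± 0.20) also fell, while Isg15 and Bst2 changed by -0.80 ± 0.39 and 0.22 ± 0.26. Rtp4 had levels of 3.50, 3.52 and 3.70 on the KLS arrays and -0.11, -0.14 and -0.28 on the GMP arrays and did not pass the call (-3.75 ± 1.56, adjusted p 0.0584). Its standard error was far above those of the other members and, like every error here, pools the spread within all 7 fractions.

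Immediate early genes were lower in GMP for most members. Of 22 tested, 17 fell and none rose (median -2.07), 11 at the first step and 10 at the second (3 at the second with spike-in scaling). Fos had levels of 6.95, 6.99 and 7.18 on the KLS arrays, 4.32, 4.57 and 5.68 on the PreGM arrays and 3.95, 3.86 and 3.75 on the GMP arrays (-3.19 ± 0.24; the second step was -0.59 without PreGM replicate 3 (adjusted p 0.00609) and -0.95 without GMP replicate 3 (adjusted p 0.0177)), and Egr1 6.48, 7.01 and 7.24 on the KLS arrays, 5.81, 5.81 and 5.40 on the PreGM arrays and 3.54, 3.29 and 3.21 on the GMP arrays (-3.56 ± 0.36; the first step was -1.19 without KLS replicate 2 (adjusted p 0.0621), -1.08 without KLS replicate 3 (adjusted p 0.0674) and -1.10 without PreGM replicate 3 (adjusted p 0.0622)). Nr4a1, an orphan nuclear receptor induced within minutes of a stimulus, had levels of 8.0, 7.59 and 7.51 on the KLS arrays, 7.31, 7.30 and 5.14 on the PreGM arrays and 3.74, 3.63 and 3.44 on the GMP arrays. Its PreGM replicates 1 and 2 were just below KLS and replicate 3 lay between KLS and GMP. Jun (-2.48 ± 0.18), Fosb (-3.0 ± 0.24), Zfp36 (-2.54 ± 0.39), Dusp1 (-1.92 ± 0.23) and Junb (-1.90 ± 0.31) fell as well, and Klf2 and Ier3 changed by 0.37 ± 0.18 and -0.89 ± 0.31.

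Over all genes 8.81% rose and 12.6% fell, the background for the lists of this paragraph. Of 15 BCL2 family genes 3 rose and 1 fell (6 rose with spike-in scaling). The rises were of genes that promote cell death, Pmaip1 (2.63 ± 0.39), Bak1 (1.43 ± 0.13) and Bid (1.36 ± 0.12), and Mcl1, the survival factor of stem cells and neutrophils, changed by -1.45 ± 0.12, while Bcl2 and Bcl2l1 changed by -0.36 ± 0.17 and -0.59 ± 0.15. Of 22 ABC transporters 4 rose and 6 fell (8 rose with spike-in scaling). Abcd2 (3.16 ± 0.23), Abcb10 (2.13 ± 0.17) and Abcc4 (1.40 ± 0.11) rose, and the cholesterol exporters Abca1 and Abcg1 fell (-3.92 ± 0.30 and -2.73 ± 0.38). Abcg2, the dye efflux pump of stem cells, changed by -0.87 ± 0.15. Of 26 integrins and adhesion genes 3 rose and 8 fell (7 rose with spike-in scaling). Itgal, the alpha chain of LFA-1, rose by 1.21 ± 0.16. Itgam, which encodes the lineage antigen Mac1, rose by 1.23 ± 0.38 and was 1.01 without KLS replicate 3 (adjusted p 0.0643). Jam3 (-4.05 ± 0.35), Esam (-3.41 ± 0.69), Itgax (-3.17 ± 0.22) and Itgb7 (-1.69 ± 0.15) fell, Itgax and Itgb7 at the second step.

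**Figure D5:**
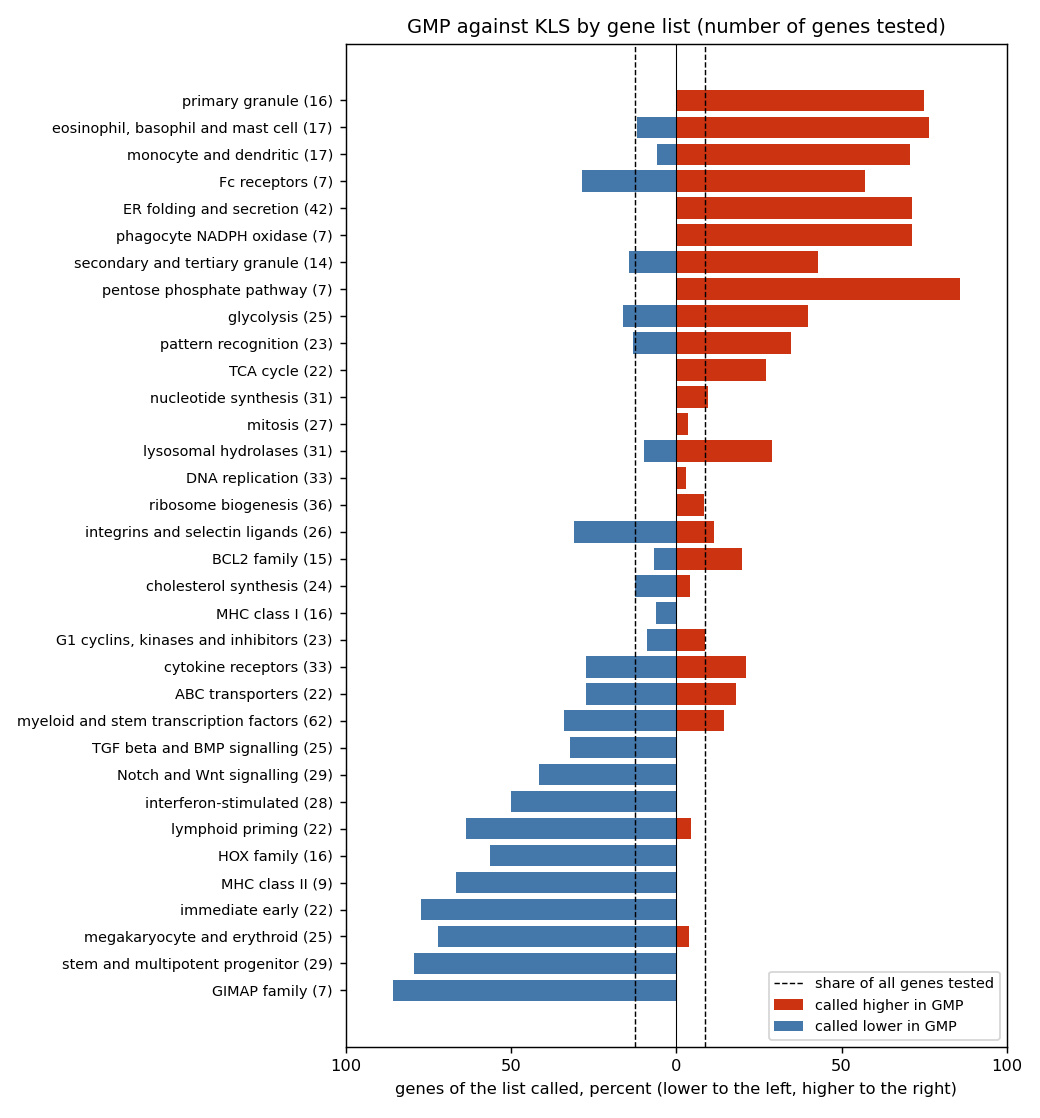
Share of the genes on each of 34 lists that were called higher in GMP (red, to the right) or lower (blue, to the left), in percent of the genes tested (number in brackets). Dashed lines mark the share of all genes called (8.81% higher, 12.6% lower). Lists are ordered by their median change, from primary granule at the top to GIMAP at the bottom.

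The 5 largest peaks at PreGM, among genes measured above background throughout, were Csrp3, a LIM domain protein of muscle, with -4.90, -4.20 and -3.32 on the KLS arrays, -0.52, -0.62 and 0.43 on the PreGM arrays and -1.29, -1.25 and -1.43 on the GMP arrays, the potassium channel subunit Kcne3 (2.73 ± 0.26 and -1.43 ± 0.26), Il1rl1, Ms4a4b (1.85 ± 0.36 and -1.08 ± 0.36) and Olfm1 (1.78 ± 0.22 and -1.40 ± 0.22). The second steps of Csrp3 and Ms4a4b lost the call when single arrays were left out, 6 different ones for Csrp3 (-1.23 to -0.76) and 5 for Ms4a4b (-1.18 to -0.87). Txk, a kinase of T and natural killer cells, was at least 3.36-fold higher in PreGM than in KLS and at least 3.32-fold lower in GMP than in PreGM, at levels of -3.89, -3.74 and -3.43 on the PreGM arrays. The 5 largest troughs, again among genes measured above background throughout, were Vcam1, Cd5l, Slc40a1, Lpl and Rnase2a. Slc40a1, the iron exporter ferroportin, had levels of 3.08, 2.41 and 1.46 on the KLS arrays, -3.94, -3.95 and -2.58 on the PreGM arrays and 0.56, 0.26 and 0.37 on the GMP arrays, and Lpl, lipoprotein lipase, had levels of 0.81, 0.04 and -0.66 on the KLS arrays, -4.51, -3.93 and -4.42 on the PreGM arrays and -1.61, -1.59 and -1.33 on the GMP arrays. Vcam1, Slc40a1 and Cd5l are on the macrophage list, of which 5 genes were lowest in PreGM. Gzmb, granzyme B of cytotoxic cells, was no peak and had levels of -3.90, -3.50 and -3.64 on the KLS arrays, -3.20, -3.24 and -1.45 on the PreGM arrays and 1.44, 1.35 and 1.13 on the GMP arrays (4.99 ± 0.41). Of the 7 Fc receptor genes 4 rose and 2 fell, and since Fc gamma receptors were part of the gate the rises of Fcgr2b (3.18 ± 0.45) and Fcgr3 (4.65 ± 0.39) are no finding. Fcgr1 and Fcgrt, which macrophages also express, changed by -3.51 ± 0.39 and -3.78 ± 0.35.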

How the data were processed

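Expression was measured in 21 samples of sorted bone marrow cells, 1 array each, and the 9 arrays titled KLS, PreGM and GMP are described here. The deposited intensity values came, per the file headers, from Agilent Feature Extraction 10.7.1.1, which subtracted the background of each spot and corrected trends across the array. The authors also deposited a log2 table of the same arrays that was already normalized between arrays, by a method not given in the sources used here, and it served as an alternative.

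Control and outlier spots were dropped, the log2 intensity of each array was reduced by its 75th percentile, and spots of a probe were averaged. Of 41174 probes, 29538 were tested, which cleared background on every array of 1 fraction or more, and 21013 of these carried a symbol, matched by transcript accession to RefSeq of GRCm38.p6, which gave 14318 genes. For each gene the probe brightest on average over the 21 arrays was used. One limma model (limma 3.58.1, R 4.3.3) with a mean per fraction was fitted to all 21 arrays, which share an estimate of the spread with 14 residual degrees of freedom, and p values were adjusted over all probes tested by the Benjamini-Hochberg method. Calls were made at an adjusted p of 0.05 with a minimum of 2-fold, and without that minimum for the second step against the first. Errors are standard errors of the model. Precision is limited by the number of arrays, 3 a fraction. A fold given as "at least" is a bound, from the mean of the brighter fraction against, on each array of the other, the higher of the dimmest signal that cleared background and the probe's own. Promoters are those of RefSeq on GRCm38.p6. The model was tested on simulated data. Tables were handled with Python 3.11.15.

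Genes named are members of the gene lists and the 15 largest rises and falls well above background on the 6 arrays. Others named come from the 5 largest of each step class and of the peaks and troughs at PreGM, well above background on all 9 arrays. Not all of the 5 largest rises assigned to a step are named. Members and lists were chosen with earlier results of these data known. Alternatives were quantile and spike-in scaling, normexp background correction with an offset of 50 on median signals, all probes, 1 probe a gene, no minimum fold, the slide or the replicate number as a block, the 9 arrays alone, the deposited log2 table, and each array left out in turn. Blocks and subsets by sex-linked transcripts were added after seeing the data. Some genes of the lists count in the list values but are not reported here by name.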

Additional observations from a re-analysis of the deposited data

How the results depend on the processing

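Counts of genes called for GMP against KLS, PreGM against KLS and GMP against PreGM, and for the difference between the steps, moved by more than 1.5 times or changed their balance in a few settings, and the cause was not tested. With no minimum fold they were 7156 (4231 higher, 2925 lower), 4117 (2376 and 1741) and 4081 (2229 and 1852). With spike-in scaling they were 4364 (3033 and 1331, so that 69.5% of calls were higher in place of 41.1%), 2613 (121 and 2492), 7770 (7474 and 296) and, for the difference between steps, 10335. Normexp background correction gave 731 calls (215 higher, 516 lower) at the first step and 1052 (433 and 619) at the second, and the slide block gave 618 differences between steps. Leaving out single arrays gave 2921 to 3366 calls for GMP against KLS, 1098 to 1287 at the first step, 1437 to 1745 at the second, and 793 to 1648 differences between steps. With the sex-linked block the 4 counts were 3170, 1277, 1619 and 1822. The PreGM arrays of the same sex gave 1080 and 1646 at the steps. Quantile scaling, the deposited log2 table, the 9 arrays alone, all probes and 1 probe a gene left these counts within 1.5 times.

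Deviations of samples with the same replicate number correlated at -0.43 to 0.25 between fractions. Samples with different numbers were not set beside them, so whether the numbers pair samples was not settled. The replicate block gave 3080, 1263, 1589 and 1453 genes. Within the slide that holds GMP replicate 2 and KLS replicate 3, 99.95% of 6406 called probes had the same sign. Within the slide of GMP and PreGM replicate 1 it was 99.90% of 3061. The calls were made with these same arrays, so this agreement could hardly fail and does not test an effect of slide. No slide holds both PreGM and KLS.

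Spike-in scaling turned the median change from PreGM to GMP positive for the HOX (0.48), lymphoid priming (0.19), interferon-stimulated (0.47), immediate early (0.00603) and endothelium and stroma (0.37) lists. With the sex-linked block the median of the list of sex-linked genes turned to 0.17 for GMP against KLS and 0.00746 for PreGM against KLS. With spike-in scaling Fos and Junb changed by 0.012 and 0.00036 from PreGM to GMP, and the difference between the steps turned positive for Blnk (0.22), Eng (0.54), Foxo3 (0.025), Gimap9 (0.43), Hoxa7 (0.24), Il1r1 (0.45), Itgal (0.46), Lmo4 (0.25), Runx1 (0.18), Smad4 (0.48), Tcf7l2 (0.67), Tgfbr2 (0.15) and Zeb2 (0.46). Ltf changed by 0.71 from KLS to GMP with the sex-linked block.

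Of the genes named above, 244 were called between GMP and KLS and 218 of them in every setting tried, against 81 of 146 at the first step, 119 of 178 at the second and 51 of 123 for the difference between steps. Among named genes assigned to a step, the difference between steps was lost without 1 array or another for Abcb10, Abcc4, Angpt1, Blnk, Ccr9, Cdkn1a, Chil3, Cpa3, Csf1r, Ctla2a, Ero1a, Fcgr3, Gata3, Gzmb, Hba-a1, Hdc, Hmox1, Hoxa7, Ifit3, Il1r1, Irak3, Itgal, Jam3, Klf1, Lmo4, Ly6c2, Ndn, Pgd, Slc16a11, Tcf7l2, Tek and Tfec, and only with slide as a block, of these 2 kinds of setting, for C3, Car1, Ciita, Csf2ra, Cybb, Epor, Flt3, Gata2, Gp1ba, Il7r, Itgb2l, Mgam, Mmp8, Ms4a2, S100a8, S100a9 and Zeb2. With spike-in scaling, falls at the first step went from 6 to 11 of the HOX genes, from 9 to 18 of the interferon-stimulated genes, from 4 to 15 of the transcription factors and from 1 to 9 of the TGF beta and BMP genes, rises at the second step went from 5 to 20 of the transcription factors, from 9 to 14 of the primary granule genes, from 2 to 7 of the NADPH oxidase genes and from 3 to 27 of the mitotic genes, and 5 cholesterol synthesis genes rose and 1 fell over the whole path. The count of ribosome biogenesis rises was 0 with quantile scaling or the deposited log2 table and 8 without KLS replicate 3, and that of nucleotide synthesis 5 without KLS replicate 3.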
